A study of Mus musculus and Homo sapiens with 180 samples.

Results

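The libraries described here are 6 RNA-seq libraries of MOLM13 cells labelled BCOR KO, of which 3 had received the Menin inhibitor VTP50469 and 3 the solvent DMSO, out of 180 samples in the series and 27 in the table of MOLM13 knockouts. They were chosen by genotype and treatment as the labels and column names give them, and no measured value entered the choice. MOLM13 is a human acute myeloid leukaemia line that carries the MLL-AF9 fusion. All cells expressed Cas9 and received a guide RNA by lentivirus. The edited cells are described as transduced and puromycin-selected populations, and the share of BCOR alleles edited in these libraries was not analysed here. The labels give VTP50469 at 500 nM for 48 h and the DMSO libraries a time of 72 h, so that drug and time cannot be told apart in full. For comparison, the same table holds Control cells (the tag NT in the column names) and PCGF1 KO cells given the same drug and DMSO, and BCOR KO cells given the DOT1L inhibitor SGC0946 at 5 µM for 72 h. A second table holds PCGF1/BCOR KO MOLM13 cells given 500 nM VTP50469 for 96 h, or DMSO. Each of these groups has 3 libraries, called biological replicates by the study for its RNA-seq, and p-values measure the spread between such libraries only.

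Menin is a scaffold protein that tethers MLL and its fusion proteins to chromatin, and a Menin inhibitor blocks that contact. In MLL-rearranged leukaemia the fusion keeps HOXA genes, MEIS1, MEF2C and other genes of early progenitors active, and loss of this programme is commonly followed by expression of myeloid maturation genes. BCOR is a subunit of PRC1.1, the non-canonical Polycomb complex built on PCGF1, whose RING1A or RING1B subunit places ubiquitin on histone H2A, a mark linked to gene repression. The study asked whether PRC1.1 is needed for the transcriptional response to Menin and DOT1L inhibitors, and the comparison of drug with DMSO in BCOR KO cells gives the response that takes place when BCOR has been targeted.

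The guides show which bases of BCOR the study targeted, and are printed because the 3′ reads used here cannot show the edit. The study lists a pair of guides against human BCOR, and the columns carry the tag G2, which is not stated to mean the second of them. In the sequences below the guide is in lower case and the adjacent genomic PAM in capitals.
Human BCOR sgRNA 1: gggtcaatccttacatggAGG
Human BCOR sgRNA 2: gcgcaatggacgagaggcGGG
Both guides have 18 bases and match coding exon 4 of 15 of the canonical BCOR transcript (GRCh38, minus strand), sgRNA 1 at chrX:40074757-40074774 on the minus strand and sgRNA 2 at chrX:40074498-40074515 on the plus strand. Their sites lie 5538 and 5279 exonic bases before the 3′ end of the transcript, where the reads of this method start. BCOR RNA was present in every library. It stood at 97.9, 111 and 106 CPM (reads scaled to a library of 1000000) in the BCOR KO DMSO libraries, 103, 99.1 and 111 on the drug, 55.3, 45.3 and 56.03 in Control DMSO and 60.6, 60.2 and 61.3 in Control cells on the drug. The BCOR KO libraries thus lay above all Control libraries (log2 fold change 1.01 ± 0.089 (SE), adjusted p = 5.04e-09, edgeR quasi-likelihood test, DMSO libraries; 0.92 without Control DMSO replicate 2), and drug and DMSO did not differ detectably within BCOR KO cells (log2 fold change -0.011, adjusted p = 0.972). Reads at the 3′ end check neither the edit nor the protein, and "BCOR KO" is used below as the name on the label.

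The 6 libraries held between 4675787 and 5921745 reads, of which 37.5% to 41.6% carried no gene name and were left out. Libraries of the same group correlated at r = 0.985 to 0.988 on log2 CPM in both BCOR KO groups, and none was a copy of another. Among the comparison groups, Control DMSO replicate 2 stood apart from the other 2 libraries of its group (r = 0.971 and 0.972). Total and shared counts of calls that rest on it are given with and without it, an alternative chosen for the comparisons outside the interaction test after the data were seen. Counts over gene lists, of equal sign or at an unadjusted p are given only with it. Since reads were counted from 3′ ends, CPM are compared between libraries and not between genes. MOLM13 is of myeloid origin, and of the markers of other cells 10 of 18 erythroid and megakaryocyte genes, including HBA1, HBB and GATA1, 6 of 17 lymphoid genes in the table and 8 of 12 epithelial and stromal genes had no read in any of the 6 libraries, and none of the 9 that could be tested passed between drug and DMSO. Over the 6 libraries the members summed to 261 to 307 CPM for the erythroid and megakaryocyte list, which holds the transferrin receptor TFRC of proliferating cells of any lineage, to 66.9 to 85.4 CPM for the lymphoid list and to 1.16 to 4.89 CPM for the epithelial and stromal list. Fewer cells of a type and less RNA per cell cannot be told apart in bulk RNA of this kind.

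Menin inhibition lowered MLL fusion targets and raised genes of myeloid maturation in BCOR KO cells. Of 12140 genes tested, 880 passed at an adjusted p under 0.05 (edgeR quasi-likelihood test with Benjamini-Hochberg adjustment, 3 against 3 libraries), 7.25% of those tested. Of these, 513 genes rose (4.23%) and 367 fell (3.02%). The median size of a called change was 0.63 on the log2 scale, 239 of the called genes changed by over 2-fold and 69 by over 4-fold. For 866 of the 880 genes (98.4%) the drug and DMSO libraries did not overlap, against 26.5% of all genes tested. The largest falls included regulators of early progenitors, and the largest rises included granule, oxidase and surface proteins of mature myeloid cells.

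MEIS1, the homeobox cofactor of HOXA proteins and a defining target of MLL fusions (chr2:66433452-66573869, GRCh38), stood at 33.8, 26.2 and 29.4 CPM in the 3 DMSO libraries and at 4.21, 3.32 and 5.04 CPM on the drug. All drug libraries lay below all DMSO libraries, and the gene fell by a factor of 7.13 (log2 fold change -2.83 ± 0.22 (SE), adjusted p = 2.47e-10). Its partner PBX3, another homeobox protein of the TALE family, fell from 176, 169.5 and 160.2 to 42.8, 33.7 and 35.5 CPM (log2 fold change -2.17 ± 0.12 (SE), adjusted p = 1.98e-13). MEF2C, a transcription factor required by MLL-rearranged leukaemia cells (chr5:88717117-88904257), fell from 235, 233 and 209 to 56.5, 54.2 and 47.8 CPM (log2 fold change -2.09 ± 0.094 (SE), adjusted p = 2.93e-15). These 3 regulators all fell by over 4-fold with the groups well apart.

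ZNF521, a zinc finger protein of haematopoietic progenitors, fell from 54.3, 54.4 and 50.03 to 2.81, 4.37 and 4.41 CPM (log2 fold change -3.78 ± 0.18 (SE), adjusted p = 6.85e-15). EFNA5, a membrane-bound ephrin ligand, fell from 47.3, 44.3 and 44.98 to 2.46, 1.75 and 1.05 CPM (log2 fold change -4.65 ± 0.23 (SE), adjusted p = 2.47e-14). Both fell by over 10-fold. CDK6-AS1, a long non-coding RNA on the strand opposite to CDK6, had 79, 83 and 81 reads in the DMSO libraries and 2 in each drug library, a ratio of 39.1 with a 95% counting interval of 17.7 to 107. Whether the counting used strand is not given in the sources used here, so that reads of CDK6-AS1 and of CDK6, itself lower on the drug (log2 fold change -0.84), may be mixed. The other genes among the 12 largest falls were TBC1D30 (-2.96), TMEM255A (-2.87), CPEB2 (-2.50), ANGPT1 (-2.25), MIR1915HG (-2.23), NR2F1 (-2.13) and MYO6 (-2.13), given as log2 fold changes. These 12 were ranked only among genes whose drug and DMSO libraries did not overlap. ANGPT1 encodes angiopoietin-1, a ligand of the TIE2 receptor, and MYO6 an unconventional myosin. NR2F1, an orphan nuclear receptor, stood at 61.6, 62.8 and 47.9 CPM in BCOR KO DMSO and 12.5, 14.5 and 12.2 CPM on the drug.

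**Figure D1:**
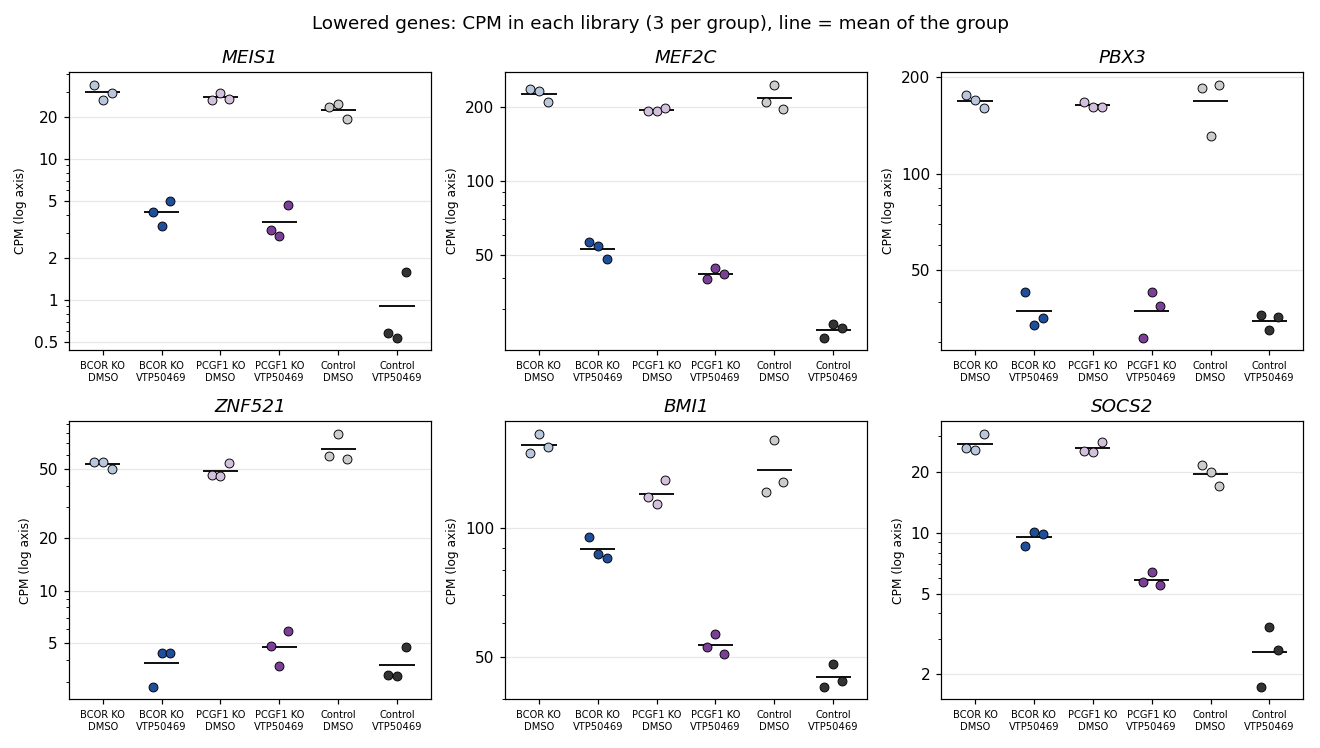
CPM of MEIS1, MEF2C, PBX3, ZNF521, BMI1 and SOCS2 in each library (log axis, 1 point per library, 3 per group, line at the mean) for BCOR KO, PCGF1 KO and Control cells on DMSO or VTP50469. In BCOR KO cells all 3 drug points of each gene lie below all 3 DMSO points, and MEF2C on the drug sits near 52.9 CPM in BCOR KO cells and 24.7 CPM in Control cells.

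SOCS2, a feedback inhibitor of cytokine signalling, fell from 26.3, 25.6 and 30.9 to 8.60, 10.1 and 9.86 CPM (log2 fold change -1.53 ± 0.17 (SE), adjusted p = 3.19e-07). JMJD1C, a putative histone demethylase, and EMB, the cell adhesion protein embigin, fell by 1.04 and 1.19 on the log2 scale, and the transcription factor FOXP1 by 0.71 (adjusted p = 0.000393, 2.65e-10 and 2.29e-05). LPXN, which encodes the focal adhesion adaptor leupaxin, rose (log2 fold change 0.89 ± 0.14 (SE), adjusted p = 5.04e-05). These genes are named by the study for human or mouse leukaemia cells, and other genes of that set did not pass here. HOXA10 stood at 37.7, 32.6 and 29.8 CPM on DMSO and 26.7, 28.3 and 28.96 on the drug (log2 fold change -0.25 (95% interval -0.53 to 0.03, adjusted p = 0.31)). HOXA13 gave 0.11 (95% interval -0.31 to 0.53, adjusted p = 0.853), CD2AP -0.13 (95% interval -0.61 to 0.35, adjusted p = 0.848) and MSI2 -0.0048 (95% interval -0.27 to 0.27, adjusted p = 0.994), all as log2 fold changes, so that a fall as large as that of MEIS1 lay outside each of these intervals.

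Over the list of MLL fusion targets, 34 of 38 members could be tested, of which 20 fell, 2 rose and 12 did not pass. The median log2 fold change of the tested members was -0.55 and the range -3.78 to 0.89, against a median of 0.003 over all genes tested. Besides those named above, members that fell included the RNA-binding proteins CPEB2 (-2.50) and IGF2BP2 (-1.06), the chromatin organiser SATB1 (-1.34), the receptor kinase FLT3 (-0.56), RUNX2 (-0.90), the anti-apoptotic BCL2 (-0.71) and the cell-cycle kinase CDK6. LPXN and the phosphatase PTPRC (0.45), the surface antigen CD45, were the 2 that rose, and GFI1, LMO2 and MYB were among those that did not pass. In the HOXA cluster and its TALE partners, 12 of 20 members were tested and 3 fell, namely HOXA9, MEIS1 and PBX3, with a median of -0.48. HOXA9 stood at 84.4, 86.5 and 86.3 CPM on DMSO and 65.5, 57.9 and 60.4 on the drug (log2 fold change -0.49 ± 0.11 (SE), adjusted p = 0.00331), and shares annotated bases with HOXA10 on the same strand. HOXA5 and HOXA11 gave -0.96 and -0.50 without passing (adjusted p = 0.117 and 0.115).

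None of the 10 PRC1.1 subunits passed, and their log2 fold changes lay between -0.35 and 0.29. Of 23 tested members of the other PRC1 and PRC2 complexes, BMI1, the PCGF4 subunit of canonical PRC1, fell from 149.9, 166 and 155 to 95.5, 87.2 and 85.2 CPM (log2 fold change -0.81 ± 0.093 (SE), adjusted p = 4.2e-07). BMI1 shares its annotated 3′ part with the read-through gene COMMD3-BMI1. The PRC2 accessory proteins PHF19 and JARID2 and the chromobox protein CBX6 rose (0.49, 0.39 and 0.25), while the catalytic subunits EZH2 (-0.17) and EZH1 (0.24) did not pass. CBX6 passed under only 6 of 12 alternative settings of the fit. Among 22 tested members of the MLL, Menin and DOT1L complexes 1 passed, KDM6A, the demethylase UTX of the MLL3/4 complex, at 1.16, 2.80 and 2.35 CPM on DMSO and 6.32, 4.02 and 4.83 on the drug (log2 fold change 1.24 ± 0.34 (SE), adjusted p = 0.0228). MEN1 itself, which encodes Menin, gave a log2 fold change of 0.21 (adjusted p = 0.29).

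CYBB encodes the catalytic subunit of the phagocyte NADPH oxidase (chrX:37780018-37813461) and stood at 8.88, 7.42 and 9.57 CPM on DMSO. On the drug it reached 76.2, 83.7 and 71.1 CPM, a rise by a factor of 8.94 (log2 fold change 3.16 ± 0.13 (SE), adjusted p = 1.16e-15). MPO, the myeloperoxidase of primary granules (chr17:58269855-58280935), rose from 9.27, 8.57 and 12.8 to 53.2, 52.4 and 44.7 CPM (log2 fold change 2.30 ± 0.13 (SE), adjusted p = 2.58e-13). Both were low in every DMSO library and several-fold higher in every drug library. CHI3L1, a chitinase-like secreted glycoprotein of mature neutrophils and macrophages, rose from 56.8, 64.1 and 58.3 to 307, 326 and 355 CPM (log2 fold change 2.46 ± 0.099 (SE), adjusted p = 5.98e-16). SLPI, a secreted inhibitor of neutrophil proteases, rose from 15.3, 15.2 and 16.4 to 78.3, 65.9 and 73.9 CPM (log2 fold change 2.22 ± 0.10 (SE), adjusted p = 3.08e-15). BPI, an antibacterial protein of primary granules, rose from 1.74, 2.47 and 2.71 to 16.3, 14.9 and 18.1 CPM (log2 fold change 2.81 ± 0.28 (SE), adjusted p = 3.87e-08). The 3 DMSO and the 3 drug libraries did not overlap for any of these 5 genes, which was a condition for a place among the 12 largest rises. The 12 largest rises also included MEGF6 (3.55), GAPT (2.76), ANXA1 (2.25), CD36 (2.19), SORL1 (2.09) and ADA2 (2.02), as log2 fold changes. ANXA1 encodes the calcium-dependent phospholipid-binding protein annexin A1, CD36 a scavenger receptor, and ADA2 a secreted adenosine deaminase of myeloid cells.

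**Figure D2:**
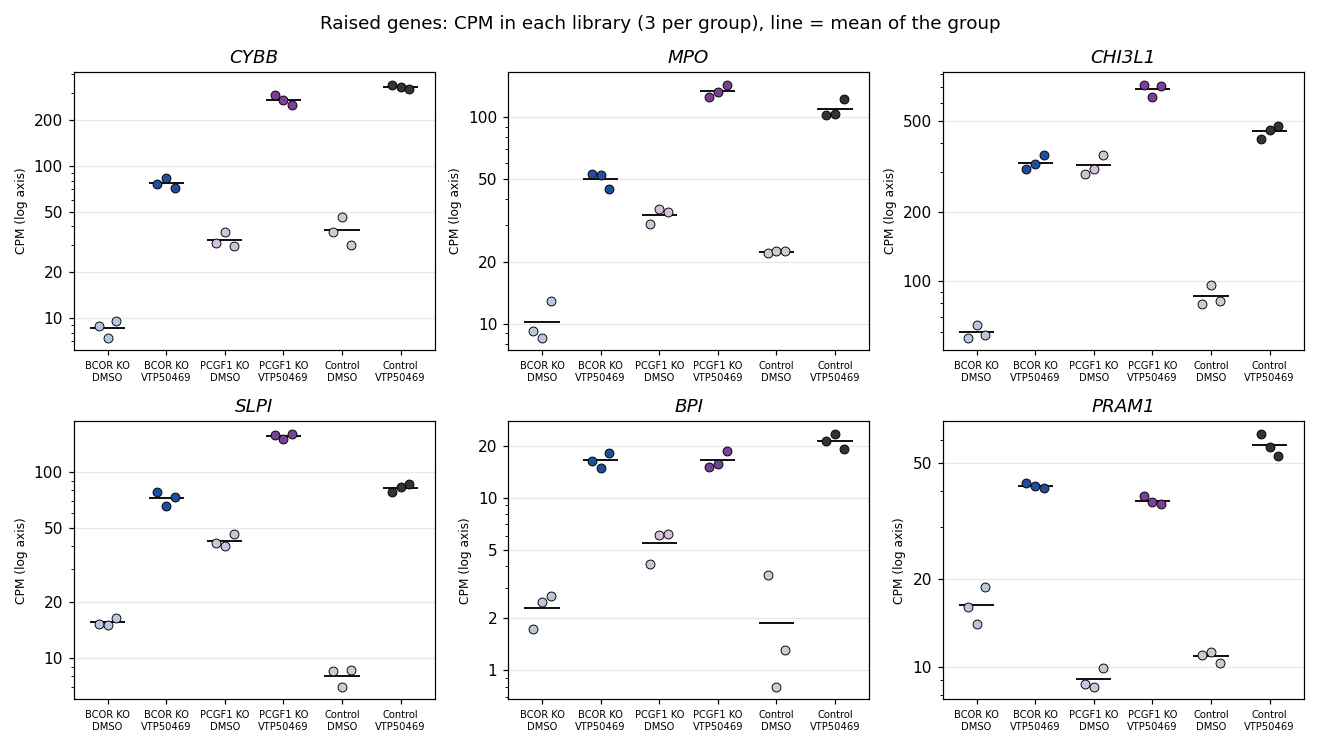
CPM of CYBB, MPO, CHI3L1, SLPI, BPI and PRAM1 in each library (log axis, 1 point per library, 3 per group, line at the mean) in BCOR KO, PCGF1 KO and Control cells. In BCOR KO cells the drug points lie above the DMSO points for all 6 genes, with CYBB at 77.02 CPM on the drug against 331 CPM in Control cells. CYBB was lower in BCOR KO than in Control cells on DMSO as well.

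Genes of myeloid maturation rose across several lists, each of which held no member that fell. In the primary granule list 9 of 16 tested members rose (17 members in all, median 0.50), among them the lysozyme LYZ (1.54), the eosinophil-type ribonucleases RNASE3 (1.42) and RNASE2 (1.01), the protease CTSG (0.84) and the elastase ELANE (0.60). AZU1 and PRTN3, which encode related granule proteins, did not pass (0.17 and 0.41). RNASE2 and RNASE3 have similar sequences, and reads could be divided between them. In the phagocyte oxidase list 3 of 4 tested members rose, among them CYBB and NCF4 (0.34), and CYBA gave 0.033. In the monocyte and macrophage list 8 of 14 tested members rose (25 in all, median 0.77), including the fractalkine receptor CX3CR1 (1.56), the nuclear antigen MNDA (1.62), the receptor CSF1R (1.28) and TLR4 (1.1). Among surface receptors and integrins 10 of 21 tested members rose (median 0.52), led by ITGB7 (1.56) and the co-stimulatory ligand CD86 (1.15), while ITGAM, the CD11b integrin chain, did not pass (log2 fold change 0.73 ± 0.35 (SE), adjusted p = 0.249). In the S100 and alarmin list 4 of 9 rose, ANXA1, S100A6 (1.15), S100P (1.05) and S100A4 (0.53). LYZ passed under only 6 and S100P under only 7 of 12 alternative settings of the fit. Most secondary and tertiary granule genes were too low to test (5 of 18 tested, 3 rose).

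Of 25 tested myeloid transcription factors 5 rose and 1 fell. CEBPE, a C/EBP factor of late granulocyte development, rose from 1.16, 1.65 and 1.99 to 4.39, 3.67 and 3.36 CPM (log2 fold change 1.24 ± 0.31 (SE), adjusted p = 0.0109). NFE2 (1.49), the MiT/TFE-family factor TFEC (0.91), CEBPD (0.86) and the vitamin D receptor VDR (0.40) rose too. IRF8, a factor of the monocyte and dendritic lineages, fell from 218, 221 and 230.3 to 134, 141 and 133 CPM (log2 fold change -0.71 ± 0.16 (SE), adjusted p = 0.00328), and SPI1, which encodes PU.1, gave 0.18 (adjusted p = 0.605). The stem and progenitor list was mixed, with falls of MEIS1, FLT3 and GATA2 (-0.47), a rise of the lectin CLEC12A (2.25) and a median of -0.06. GATA2 passed under only 5 of 12 alternative settings.

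Among D cyclins and CDK inhibitors 5 of 16 tested members fell and none rose, namely CDKN2C (-1.25), CDK6 (-0.84), MYC (-0.51), CDKN1A (-0.40) and CCND2 (-0.37). These members have opposed roles, since CDK6 and CCND2 drive entry into S phase and CDKN2C and CDKN1A inhibit cyclin-dependent kinases. MYC passed under only 6 of 12 alternative settings. Of 30 tested proliferation genes 1 passed, RRM2, a subunit of ribonucleotide reductase, which fell (-0.28, adjusted p = 0.0199), and the list's median was 0.08. Of 20 tested genes of SOCS proteins, PIM kinases and STAT5 targets, SOCS2 alone passed.

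**Figure D3:**
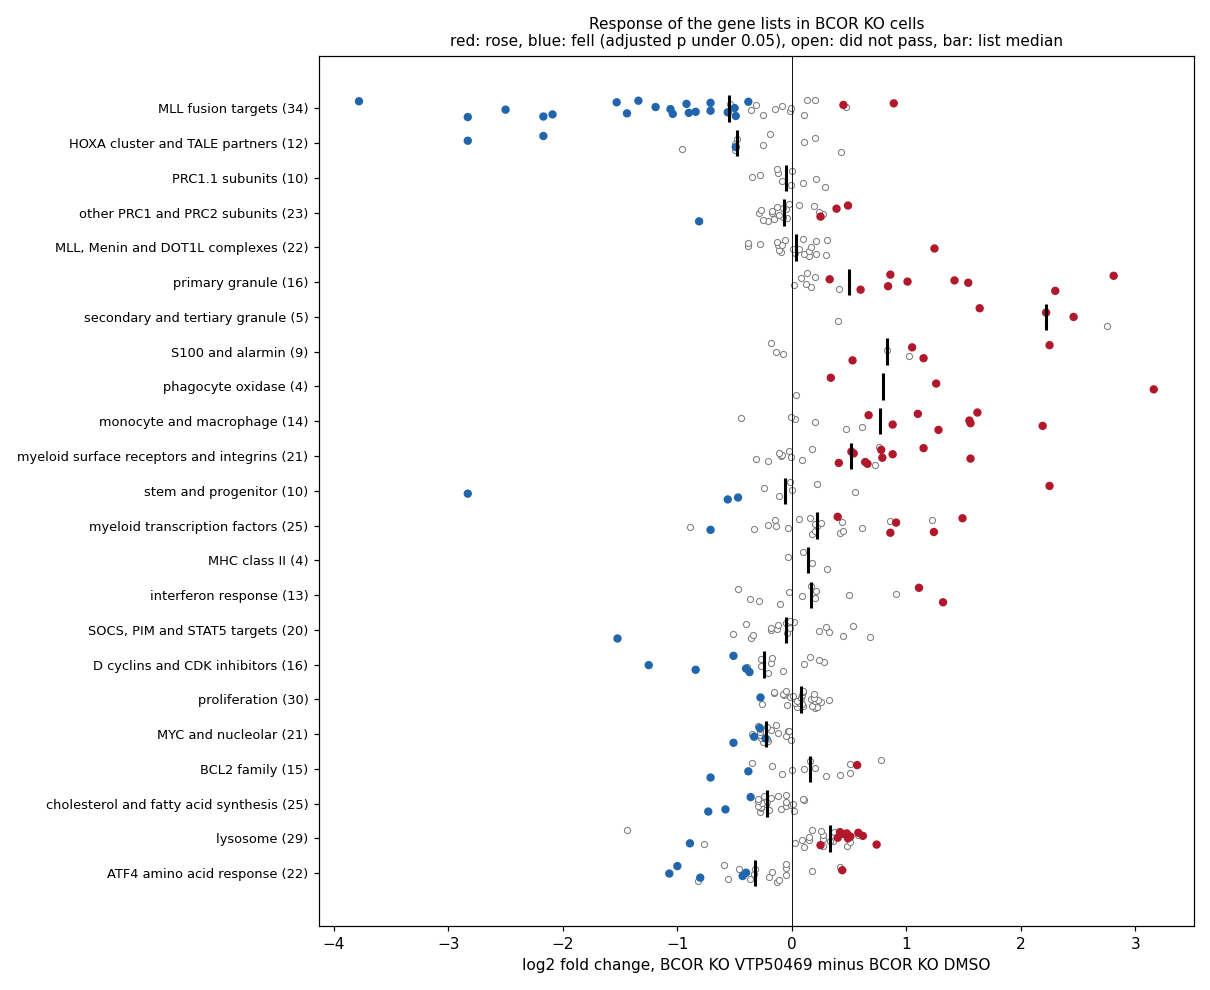
Log2 fold change, BCOR KO VTP50469 minus BCOR KO DMSO, of each tested member of 23 gene lists (red rose, blue fell at an adjusted p under 0.05, open did not pass, black bar the list's median, tested members in brackets). The medians of the MLL fusion target and HOXA lists lie at -0.55 and -0.48, and those of the granule, S100, oxidase, monocyte and surface receptor lists at 0.50 or above.

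The 300 bases upstream of the canonical start sites were described for genes that rose and genes that fell, with no test. Among 10328 protein-coding genes tested the median window held 25 CpG dinucleotides and 91.5% held at least 10. Windows of the 340 protein-coding genes that fell held a median of 27, and 91.8% held at least 10. Windows of the 465 that rose held a median of 22 with quartiles of 8 and 32, and 72.9% held at least 10, which is below the share over all genes. The window of MEIS1, the fusion target described first, is printed as an example, 5′ to 3′ on the strand of the gene (GRCh38 sequence and GENCODE start), with each CG in capitals. It lies at chr2:66434825-66435124 on the plus strand and holds 17 CpG.
MEIS1: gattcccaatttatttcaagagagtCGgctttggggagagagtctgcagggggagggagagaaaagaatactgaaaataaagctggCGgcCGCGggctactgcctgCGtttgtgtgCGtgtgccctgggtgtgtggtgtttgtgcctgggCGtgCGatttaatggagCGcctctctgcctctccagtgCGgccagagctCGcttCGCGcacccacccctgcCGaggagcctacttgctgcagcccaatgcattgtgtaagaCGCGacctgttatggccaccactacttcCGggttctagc
Of the short motifs searched on both strands, GAGGAAGT, a core of ETS factors such as PU.1, was in 5.38% of the windows of genes that rose (25 of 465), in 1.76% of those of genes that fell (6 of 340) and in 2.51% of all. TGACAG, the core bound by MEIS proteins, was in 13.8%, 8.24% and 11.6%, in the same order. The C/EBP palindrome TTGCGCAA and the HOX and PBX composite TGATTGAT were in under 1% of the windows of every set. None of these motifs contains another, and a match describes letters in the window and not binding.

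The response was then set beside that of Control cells, which shares no library with it. In Control cells 2000 genes passed (16.5% of those tested), 994 higher (8.19%) and 1006 lower (8.29%). Of the 880 genes called in BCOR KO cells, 664 were called in the same direction in Control cells, which is 75.5% of the BCOR KO list and 33.2% of the Control list, and 861 (97.8%) had the same sign. Without Control DMSO replicate 2, 1809 genes passed in Control cells (14.9%) and 645 were called in both. The difference between the responses was tested for each gene as an interaction, and 11 of 12140 genes passed (0.0906%), 7 with a higher (0.0577%) and 4 with a lower log2 fold change in BCOR KO cells. At an unadjusted p under 0.05 there were 808. In simulated counts this interaction test called 6 of 46 genes changed 1.5-fold and 28 of 49 changed 2-fold. Differences of that size can thus be missed, and the small count does not show that the responses were alike. For 10 of the 11 genes the change was smaller in size in BCOR KO than in Control cells. Of the 880 genes called in BCOR KO cells, a list chosen by that response, 447 had the same sign and a larger change in Control cells. The median log2 fold change of those that rose was 0.649 in BCOR KO and 0.642 in Control cells. For those that fell the medians were -0.577 and -0.567.

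MEF2C fell in both, to 56.5, 54.2 and 47.8 CPM in BCOR KO and to 22.97, 26.1 and 25.03 CPM in Control cells, from 209.7, 247 and 196 in Control DMSO. Its log2 fold change was -2.09 in BCOR KO and -3.14 in Control cells, a difference of 1.04 (95% interval 0.77 to 1.32, adjusted p = 0.000142). NAT8L, which encodes N-acetylaspartate synthetase, stood at 31.7, 25.7 and 24.8 CPM in BCOR KO DMSO and 32.1, 28.8 and 29.2 on the drug. In Control cells it fell from 7.62, 9.02 and 10.1 to 2.51, 1.62 and 2.98 CPM, and the responses differed by 2.04 (95% interval 1.53 to 2.55, adjusted p = 9.42e-05). BMI1 fell from 122, 161 and 128 to 42.6, 48.3 and 43.9 CPM in Control cells, a larger fall than in BCOR KO cells by 0.79 (95% interval 0.52 to 1.07, adjusted p = 0.00565). CCND2, which encodes cyclin D2, stood at 130, 134 and 128 CPM in BCOR KO DMSO, 100.1, 102 and 102 on the drug, 23.2, 22.5 and 28.8 in Control DMSO and 9.07, 10.1 and 11.7 in Control cells on the drug, and its responses differed by 0.90 (95% interval 0.62 to 1.18, adjusted p = 0.00159). All 4 genes thus held a higher level on the drug, relative to their own DMSO libraries, in BCOR KO than in Control cells.

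SLPI and PRAM1, an adaptor protein of myeloid cells, differed the other way. SLPI rose from 8.51, 7.02 and 8.66 to 77.97, 83.4 and 86.3 CPM in Control cells, and the responses differed by -1.13 (95% interval -1.44 to -0.82, adjusted p = 0.000228) on the log2 scale. PRAM1 rose from 10.99, 11.2 and 10.3 to 62.9, 56.6 and 52.7 CPM in Control and from 16.03, 14.01 and 18.8 to 42.5, 41.6 and 41.1 CPM in BCOR KO cells, a difference of -1.04 (95% interval -1.40 to -0.69, adjusted p = 0.00547). Of the other 5 genes, SKIDA1 gave 2.22, TRIM7 1.68, ENSG00000258486 1.25, ARRB2 -0.79 and S100A9 -5.23 (adjusted p = 0.00861, 0.0332, 0.0319, 0.0343 and 0.0495). S100A9 had 0, 1 and 0 reads in Control DMSO, so that its value depends on the prior count and gives no fold. Of 18 alternatives, NAT8L, MEF2C and SLPI were lost in 0, BMI1, CCND2 and PRAM1 in 1 each, SKIDA1 in 3, TRIM7 in 7, ENSG00000258486 in 9 and ARRB2 in 11, and S100A9 was lost in 11 of 17. The count itself was 3 when only the groups compared were fitted, 7 without BCOR KO DMSO replicate 2, 7 without Control VTP50469 replicate 3 and 10 without Control DMSO replicate 2, where TRIM7, ENSG00000258486 and ARRB2 did not pass.

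MEIS1 did not pass this test. It fell from 23.2, 24.5 and 19.1 to 0.579, 0.54 and 1.57 CPM in Control cells, and its responses differed by 1.74 (95% interval 0.89 to 2.59, adjusted p = 0.107). SOCS2 gave 1.37 (95% interval 0.78 to 1.95, adjusted p = 0.0514), with 21.6, 20.1 and 17.1 CPM in Control DMSO and 1.74, 3.42 and 2.63 on the drug. At the looser threshold used as an alternative, an adjusted p under 0.1 with a log2 change over 0.5, SOCS2 passed and MEIS1 did not. Over the MLL fusion targets the median log2 fold change was -0.55 in BCOR KO and -0.69 in Control cells, and 20 against 21 of 34 members fell. Over the HOXA list the medians were -0.48 and -0.72, with 3 against 7 of 12 members lower. These counts were not themselves tested against each other.

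**Figure D4:**
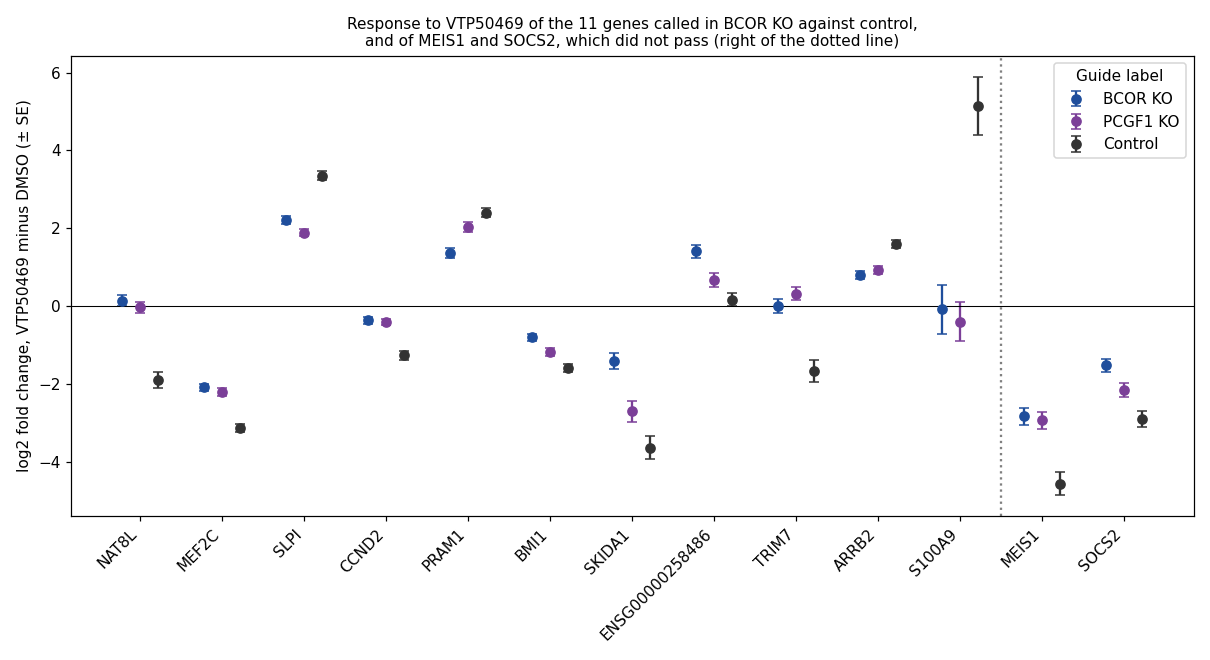
Log2 fold change, VTP50469 minus DMSO (± SE, 3 against 3 libraries), in BCOR KO, PCGF1 KO and Control cells for the 11 genes that differed between BCOR KO and Control cells and, right of the dotted line, for MEIS1 and SOCS2, which did not pass. BCOR KO values lie nearer to 0 than Control values for 10 of the 11 genes.

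The PCGF1 KO libraries, which target the partner subunit that defines PRC1.1, gave 1003 called genes on the drug (8.26%), 597 higher (4.92%) and 406 lower (3.34%). Of the 880 genes called in BCOR KO cells 535 were called there, which is 60.8% of the BCOR KO and 53.3% of the PCGF1 KO list, 534 of them in the same direction, and 856 (97.3%) had the same sign. The difference between the 2 responses passed for 6 genes (0.0494%), all with a higher log2 fold change in BCOR KO cells, and 557 genes reached an unadjusted p under 0.05. All 6 were called between drug and DMSO in BCOR KO cells and 3 of them in PCGF1 KO cells. CHI3L1 rose from 293, 309 and 357 to 720.5, 638 and 708 CPM in PCGF1 KO cells, and its responses differed by 1.35 (95% interval 1.08 to 1.63, adjusted p = 1.16e-06). MYBPH, which encodes a myosin-binding protein and adjoins CHI3L1 on chromosome 1, differed by 1.02 (95% interval 0.72 to 1.32, adjusted p = 0.000595). RNASE2, at 1094, 1075 and 1093 CPM in PCGF1 KO DMSO and 1309, 1370 and 1367 on the drug, differed by 0.70 (95% interval 0.51 to 0.88, adjusted p = 0.0002). These 3 genes and RNASE2CP (0.87, adjusted p = 0.000595), a pseudogene related to RNASE2 that may take its reads, passed under all 18 alternatives. VAT1 (0.81, adjusted p = 0.00966) was lost in 2 of them. CES1P1, a pseudogene of CES1, was lost in 5 and stood at 37.2, 59.4 and 1.47 CPM in the BCOR KO drug libraries, so that 1 library lay far below the other 2. MEIS1 and MEF2C gave 0.10 (95% interval -0.57 to 0.77, adjusted p = 1.0) and 0.12 (95% interval -0.15 to 0.39, adjusted p = 1.0).

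On the drug, 876 genes differed between BCOR KO and Control cells (7.22%), of which 499 were higher (4.11%) and 377 lower (3.11%) in BCOR KO cells. This comparison of levels holds both what differed before treatment and what differed in the response. In the DMSO libraries 855 genes differed between the genotypes (7.04%, with 4.05% higher and 2.99% lower in BCOR KO cells), and 455 genes were called in both, 51.9% of the list on the drug and 53.2% of the list on DMSO, 453 of them in the same direction. Without Control DMSO replicate 2, 666 genes differed on DMSO (5.50%) and 411 were called in both. The 2 comparisons share no library.

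NR2F1 had 12.5, 14.5 and 12.2 CPM in BCOR KO cells on the drug, and 0, 1 and 2 reads in Control cells on the drug, a ratio of 71.8 with a 95% counting interval of 24.2 to 351. NR2F1 thus fell on the drug in BCOR KO cells and was still higher there than in Control cells. MYO6 stood at 17.03, 20.1 and 18.1 CPM against 0.579, 0.18 and 0.875 (log2 difference 5.01 ± 0.29 (SE), adjusted p = 5.01e-13), and it too fell on the drug in BCOR KO cells. The transcription factor TFAP2A stood at 35.6, 22.4 and 26.6 against 1.35, 0.721 and 0.875 CPM (log2 difference 4.83 ± 0.27 (SE), adjusted p = 5e-13). The 10 largest that were higher also included FGFR1 (5.26), ADM (4.04), EEF1A2 (3.78), DLL1 (3.68), PDGFA (3.65) and NAT8L (3.65), as log2 differences. DLL1 is a Notch ligand, and PDGFA and ADM encode secreted signalling peptides. The B-cell factor PAX5, a member of the lymphoid list, had 9, 15 and 14 reads in BCOR KO cells on the drug and 0 in all 3 Control libraries. On DMSO PAX5 differed as well, with 17, 14 and 27 reads in BCOR KO and 0, 1 and 0 in Control cells.

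The 10 largest that were lower were NAV3 (-2.83), ALOX12 (-2.81), CDA (-2.77), PLCB4 (-2.69), CLEC12A (-2.57), SERPINB10 (-2.56), IL32 (-2.27), SORL1 (-2.23), SESN3 (-2.22) and GSG1 (-2.16). CLEC12A, a lectin receptor of myeloid cells, stood at 5.97, 4.37 and 6.08 CPM in BCOR KO cells and 35.3, 30.98 and 31.2 in Control cells on the drug. CDA encodes cytidine deaminase, an enzyme abundant in mature granulocytes, and stood at 1.05, 2.62 and 2.52 against 13.9, 15.1 and 13.1 CPM. Both were lower in every BCOR KO library.

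Of the 34 tested MLL fusion targets, 10 were higher and 3 lower in BCOR KO cells on the drug, with a median log2 difference of 0.11. MEIS1 stood 2.16 higher on the log2 scale (adjusted p = 0.000158), with 4.21, 3.32 and 5.04 CPM against 0.579, 0.54 and 1.57. SOCS2 (1.86), SSBP2 (1.97), MEF2C (1.1), SATB1 (0.60) and FLT3 (0.47) were higher too. The 3 that were lower were ITGB5 (-1.34), RUNX2 (-0.61) and EMB (-0.31). In the HOXA list 7 of 12 members were higher and none lower (median 0.60), among them HOXA3 (1.73), HOXA5 (1.5), HOXA13 (0.80), HOXA11 (0.74) and HOXA10 (0.49). HOXA5 stood at 10.2, 6.59 and 8.67 CPM in BCOR KO DMSO and 4.39, 5.42 and 3.15 on the drug, against 4.96, 5.41 and 6.86 and 1.93, 1.62 and 1.05 in Control cells.

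Cyclin D2 stood at 100.1, 102 and 102 CPM on the drug in BCOR KO cells against 9.07, 10.1 and 11.7 in Control cells (log2 difference 3.29 ± 0.10 (SE), adjusted p = 6.92e-19). Cyclin D1 had 13, 15 and 4 reads against 0, 0 and 2 (ratio 16.3, 95% counting interval 4.15 to 140.0), and the inhibitor CDKN1C 6, 4 and 5 against 1, 1 and 0. In the phagocyte oxidase list CYBB and NCF4 were among the members that were lower in BCOR KO cells on the drug (-2.10 and -0.61, median of the list -0.86). CYBB reached 343, 331 and 318 CPM in Control cells, from 36.5, 46.3 and 30.2 on DMSO, against 76.2, 83.7 and 71.1 in BCOR KO cells on the drug. CYBB was lower in BCOR KO cells on DMSO too, and its response did not pass the interaction test. The largest log2 fold change of the list, that of CYBB, was 3.16 in BCOR KO and 3.14 in Control cells. MPO (-1.12), CEBPE (-1.76) and the chemokine receptors CXCR2 (-1.14) and CXCR4 (-0.83) were lower on the drug as well. Most tested members of their lists did not differ. In the primary granule list 3 of 16 were lower and 2 higher. Among myeloid transcription factors 3 of 25 were lower and 3 higher, and among surface receptors and integrins 4 of 21 and 1. Over all genes tested 3.11% were lower and 4.11% higher. On DMSO 4, 1 and 4 members of these lists were lower in BCOR KO cells and 2, 5 and 0 higher. Not all granule genes were lower on the drug: RNASE2 (0.26) and the complement factor CFD (0.78) were higher.

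**Figure D5:**
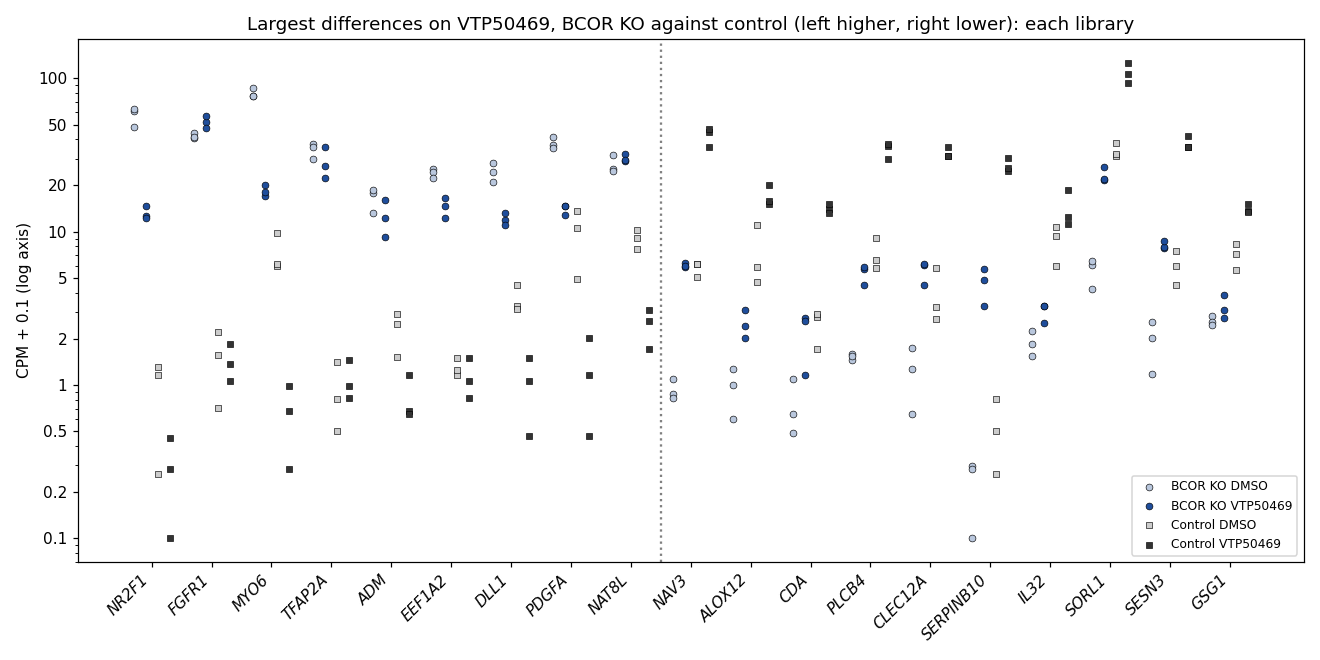
CPM + 0.1 (log axis) of genes among the 10 with the largest higher (left) and lower (right) level on VTP50469 in BCOR KO against Control cells, 1 point per library and 3 per group, on DMSO and on the drug. On the left NR2F1 lies at 12.2 to 14.5 CPM in BCOR KO cells on the drug, against 0 to 2 reads per Control library.

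The DOT1L inhibitor SGC0946 was given to BCOR KO cells at another dose and for another time, and its libraries were compared with the same DMSO libraries, so the values are only set side by side. With SGC0946 534 genes passed (4.40%), 343 higher (2.83%) and 191 lower (1.57%), and 1 MLL fusion target rose and 19 fell (median -0.35). MEIS1 stood at 12.1, 12.7 and 8.18 CPM on SGC0946 (log2 fold change -1.44) and at 4.21, 3.32 and 5.04 on VTP50469 (-2.83). MEF2C gave -1.25 and -2.09, PBX3 -0.81 and -2.17, CYBB 2.25 and 3.16, and MPO 1.92 and 2.30, in the order SGC0946 and VTP50469.

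PCGF1/BCOR KO cells given VTP50469 for 96 h come from a second experiment that shares no library with the first. Its DMSO libraries held 30970808 to 47065530 reads and its drug libraries 491592 to 6483251, so that depth and treatment cannot be told apart. There 3525 of 12741 genes passed (27.7%), 1345 higher (10.6%) and 2180 lower (17.1%). This fit ignored replicate number, and blocking on it gave 5289. The count fell to 1721 without DMSO replicate 2, 2272 without DMSO replicate 3, 2033 without drug replicate 1 and 2225 without drug replicate 2. Calls that were higher made up 38.2% under the scaling used, 56.3% with DESeq2 size factors and 72.5% with library size, while the median over all genes moved from -0.10 to 0.22 and 0.44, so that directions are relative to the scaling. Of 9968 genes tested in both tables, 773 were called at 48 h in BCOR KO cells, and 292 of these were called at 96 h, which is 37.8% and 9.23% of the lists, against 31.7% of all common genes called at 96 h. The share called is thus not far above that background, and 491 of the 773 (63.5%) had the same sign. Among genes that fell at 48 h 136 of 322 fell at 96 h (42.2%, background 20.7%), and among those that rose 99 of 451 rose (22%, background 11%).

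Several genes named above passed with the same sign in this second experiment. MEIS1 stood at 24.1, 22.1 and 25.9 CPM on DMSO and 3.52, 6.34 and 1.49 after 96 h (log2 fold change -2.88, adjusted p = 0.00692). In drug replicates 2 and 3, 3 reads equal 4.76 and 0.893 CPM, so that their MEIS1 values rest on few reads. MEF2C, PBX3 and ZNF521 fell by 2.11, 2.12 and 3.08 on the log2 scale (adjusted p = 0.0261, 0.00251 and 0.00636). CYBB, BPI and MPO rose (2.88, 4.26 and 1.79, adjusted p = 0.00375, 0.000407 and 0.00189). These values come from the fit without pairs (edgeR quasi-likelihood test). With the replicate block each of these genes passed too, MEIS1 at an adjusted p of 0.000751 and MEF2C at 9.24e-05. Other genes named above gave different values. JMJD1C and LPXN had the opposite sign and passed (1.86 and -1.15), CHI3L1 gave -0.72 and SLPI 0.075 (adjusted p = 0.466 and 0.947), and of 35 tested MLL fusion targets 11 fell and 2 rose (median -0.27), or 12 and 3 with the replicate block. Over all 12741 genes tested there 2180 fell and 1345 rose, or 3266 and 2023 with the block. Genotype, time, depth and experiment all differ from the 48 h libraries, and their parts in these values were not tested.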

How the data were processed

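RNA was sequenced from 3′ ends (3′Pool-seq). The authors aligned reads to hg38 with STAR, per the labels, and deposited raw read counts per gene, Ensembl IDs in the knockout table and symbols in the washout table. Strand and multi-mapping settings are not given in the sources used here. Rows without a gene name (36.3% to 48.6% of reads in the knockout table) were removed. Depth was 4283204 to 6330489 reads per library there and 491592 to 47065530 in the washout table, in which 8 columns of other samples were not used. Symbols and positions came from GENCODE release 44 (GRCh38), and 11676 of 12741 tested washout symbols matched.

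Genes that reached 2 CPM in 2 or more libraries were fitted with edgeR 4.0.16 (R 4.3.3, TMM scaling, quasi-likelihood test, 1 coefficient per group over all 27 knockout or 24 washout libraries), with Benjamini-Hochberg adjustment over all genes and calls at an adjusted p under 0.05. Log2 fold changes and intervals come from these fits, CPM use scaled library sizes, and read ratios have exact intervals for counting error only. Steps were tested on simulated data. Alternatives were DESeq2 1.42.0, other scalings, no filter, only the groups compared, another threshold, a replicate block and leaving out each library. To check for pairs, r was taken between same-numbered libraries over the genes' deviations from their group means, not over their levels. It exceeded 0.1 for every pair only in the PCGF1/BCOR KO comparison (r = 0.20, 0.17 and 0.19 for replicates 1, 2 and 3). The main fit there still used no pairs, and the replicate block is given as an alternative. In the others r was positive but at or below 0.1 for at least 1 pair (0.0064 to 0.17 over all), and a number in the labels is only a replicate number.

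Named genes were BCOR, PRC1.1 subunits, genes the study names for human or mouse leukaemia cells, examples from 26 lists, the 12 largest rises and falls at a mean of at least 10 CPM without overlap, all genes called between responses, and the 10 largest differences each way on the drug. Some genes that meet these rules are not reported here. Members and lists were chosen with earlier results of these data known.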

Additional observations from a re-analysis of the deposited data

Results flagged for a closer look

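The response to VTP50469 differed between BCOR KO and Control cells, by the interaction test, for 11 genes. Log2 fold changes were higher in BCOR KO cells for SKIDA1 (difference 2.22), NAT8L (2.04), TRIM7 (1.68), ENSG00000258486 (1.25), MEF2C (1.04), CCND2 (0.90) and BMI1 (0.79). They were lower for S100A9 (-5.23), SLPI (-1.13), PRAM1 (-1.04) and ARRB2 (-0.79). SKIDA1 shares bases with MLLT10 on the other strand, ENSG00000258486 is not in the annotation used, and the S100A9 value rests on 1 read in the Control DMSO libraries.

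Between BCOR KO and PCGF1 KO cells the response differed for 6 genes, all with a higher log2 fold change in BCOR KO cells, namely CES1P1 (8.88), CHI3L1 (1.35), MYBPH (1.02), RNASE2CP (0.87), VAT1 (0.81) and RNASE2 (0.70). CES1P1 varied widely among the BCOR KO drug libraries, and RNASE2 and RNASE2CP may share reads.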

How the results depend on the processing

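The 880 calls between drug and DMSO in BCOR KO cells became 626 to 1127 over the alternatives, and the 876 between BCOR KO and Control cells on the drug 648 to 1008. None of the 134 named genes called between drug and DMSO reversed, and between 0 and 29 of them were lost under a setting. The small interaction counts moved more. The count of 11 against Control cells was 24 at an adjusted p under 0.1 with a log2 change over 0.5, 23 with DESeq2, 101 with no filter, 3 with only the groups compared, 20 with the replicate block and 7 to 16 with a library left out, and 77.8% of calls were higher with library-size scaling against 63.6%. The count of 6 against PCGF1 KO cells was 10, 11, 67 and 11 under the looser threshold, DESeq2, no filter and the replicate block, and 5 to 8 with a library left out. The 3525 calls at 96 h became 5289 with the block and 1721 to 2939 with a library left out, and the share of higher calls was 38.2%, or 56.3%, 56.1%, 72.5% and 48.6% with DESeq2 size factors, DESeq2, library size and only the groups compared. The causes were not tested, apart from the looser threshold and the genes that no filter adds, which are part of those settings. In BCOR KO cells the deviations of same-numbered drug and DMSO libraries from their group means correlated at only 0.058, 0.046 and 0.089. Each library's deviations still correlated best with those of its own number, and the block gave 1127 calls that held all 880. Apart from the counts of 20, 11 and 5289 given above, the block moved no count of calls by over 1.5 times. At this depth the filter of 2 CPM leaves out genes with few reads per library.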

Other observations

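Some members of lists outside the myeloid and MLL programmes passed in BCOR KO cells on VTP50469, where 4.23% of all genes tested rose and 3.02% fell, and no list was tested as a whole. Of 29 tested lysosomal genes 10 rose and 1 fell, with a median log2 fold change of 0.33, and the members that rose included the protease cathepsin D (CTSD, 0.74), the sphingolipid activator precursor PSAP (0.62) and the acid ceramidase ASAH1 (0.45), while cathepsin L (CTSL) fell by 0.89. Of 22 tested genes of the ATF4 amino acid response 5 fell and 1 rose (median -0.32). CHAC1, a glutathione-degrading enzyme, fell by 1.07, the secreted glycoprotein STC2 by 1.0 and the serine synthesis enzyme PSAT1 by 0.80, and the cystine transporter SLC7A11 rose by 0.44. Of 21 tested MYC and nucleolar genes 4 fell and none rose (median -0.23), and of 25 genes of cholesterol and fatty acid synthesis 3 fell (median -0.22). The median over all genes tested was 0.003. In the BCL2 family the anti-apoptotic BCL2 and the BH3-only BCL2L11 fell (-0.71 and -0.38) and BIK rose (0.57), while MCL1 gave -0.084 and did not pass. None of 4 tested MHC class II genes passed (median 0.14), and 2 of 13 interferon response genes rose (median 0.17).

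On the drug, the neuronal death gene HRK had 18, 20 and 14 reads in BCOR KO libraries and 2, 1 and 2 in Control libraries, a ratio of 10.6 with a 95% counting interval of 4.25 to 33.9. The genotypes differed on DMSO too, with 14, 10 and 7 reads against 1, 1 and 0 (ratio 15.5, 95% counting interval 3.94 to 133).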
